A study of Mus musculus with 30 samples.

Results

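The washout arm of the study, 8 of its 30 libraries, was examined for whether transcription 24 h after auxin removal differed between 2 mouse embryonic stem cell lines, 10E and 11D. The members were chosen by their place in the design: the 4 libraries labelled 10E and the 4 labelled 11D, each line with 2 libraries from cells given ethanol and 2 from cells given 3-indoleacetic acid (IAA). The quantity of interest was the change from ethanol to IAA within 10E minus the same change within 11D, across all genes, and is called the line-by-treatment difference.

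All 8 libraries came from E14 cells, a feeder-free mouse embryonic stem cell line, that expressed the plant F-box protein osTIR1 and carried an auxin-inducible degron and a V5 tag on SPT16. The lines are independently targeted clones, and the labels do not say which of the clones they number 1 and 2 is 10E or 11D. IAA-treated cells received 500 nM 3-IAA for 12 h and control cells an equal volume of ethanol (EtOH), after which all were kept in fresh medium for 24 h. RNA was labelled with 4-thiouridine for 5 min and sequenced as TT-seq, which reads RNA made during the pulse. The labels do not say whether the 2 libraries of a line and treatment came from separate cultures, and the p-values here reflect the spread between these libraries alone, some of which may be technical.

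SPT16, encoded by Supt16, forms the histone chaperone FACT with SSRP1. FACT loosens nucleosomes ahead of RNA polymerase II and helps to rebuild them behind it. In the degron system auxin joins the tagged protein to the TIR1 ubiquitin ligase, which marks it for the proteasome, and in such systems removing auxin lets the protein accumulate again. SPT16 protein was not measured in these libraries, and the Supt16 transcript does not report on it.

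Total counts ranged from 6547992 to 16554314 per library. The 6 loci that each took over 1% of the counts in some library, among them an 18S ribosomal RNA locus, took 7.12% to 11.4% of the counts in the EtOH libraries and 29.9% to 40.7% in the IAA libraries, so the libraries of the 2 treatments also differed in how many counts were left for other genes, and the part of this in the results was not tested. Of 55291 gene names, 16517 passed the filter on low counts. The core pluripotency transcripts that define embryonic stem cells were present in every library: Pou5f1 lay between 91.3 and 150 CPM (reads of a gene scaled to the library's size and composition), Nanog between 89.8 and 147 CPM and Esrrb between 1188 and 2400 CPM. Sox2 was listed at 0 in all 8 libraries. Its span on chromosome 3, 34650405 to 34652461, lies within that of Sox2ot on the same strand, where reads that overlap both genes were not assigned, so the 0 is not a level.

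The share of counts in the 6 loci over 1% of counts sorted the EtOH libraries by line label. It was 11.2% and 11.4% in 10E EtOH 1 and 2, and 8.95% and 7.12% in 11D EtOH 1 and 2. Other measures did not sort them so. Meg3, a maternally expressed noncoding RNA of the imprinted Dlk1-Dio3 region, stood at 4.88 and 3.55 CPM in the 10E IAA libraries and at 99.3 and 92.5 CPM in the 11D IAA libraries. Among the EtOH libraries Meg3 stood at 2.47 CPM in 10E EtOH 1 and 2.49 CPM in 11D EtOH 1, against 136 CPM in 10E EtOH 2 and 194 CPM in 11D EtOH 2. The library labelled 10E EtOH 2 was therefore high with the 11D IAA libraries, and the library labelled 11D EtOH 1 was low with the 10E IAA libraries. Rian and Mirg, noncoding RNAs of the same region, split the libraries in the same way.

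The share of counts on chromosome 8, outside these 6 loci, made the same division. It was 5.51% in 10E EtOH 1, 5.22% and 5.06% in 10E IAA 1 and 2 and 5.27% in 11D EtOH 1. It was 7.45% in 10E EtOH 2, 7.21% in 11D EtOH 2 and 7.19% and 7.43% in 11D IAA 1 and 2. Gain of chromosome 8 and variable imprinting of the Dlk1-Dio3 region are known in cultured mouse embryonic stem cells, but copy number was not measured here. Plagl1 and Alk also followed this division. Spry4, a feedback inhibitor of receptor tyrosine kinase signalling, followed it only in part. It stood at 151 and 138 CPM in the 10E IAA libraries and 16.3 and 23.5 CPM in the 11D IAA libraries. It was at 28.4, 5.40, 24.9 and 3.32 CPM in 10E EtOH 1, 10E EtOH 2, 11D EtOH 1 and 11D EtOH 2. Its EtOH libraries thus split by number, but those numbered 1 lay nearer to 11D IAA than to 10E IAA.

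**Figure D1:**
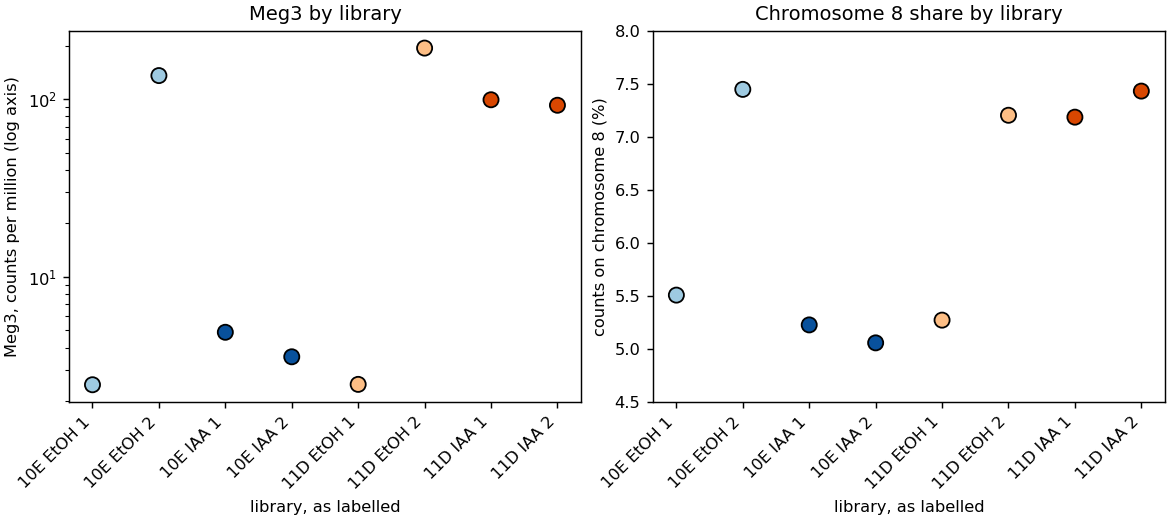
Meg3 in CPM on a log axis (left) and the percentage of counts on chromosome 8 (right), 1 point per library; pale blue 10E EtOH, dark blue 10E IAA, pale orange 11D EtOH, dark orange 11D IAA. The library labelled 10E EtOH 2 sits with the 11D IAA libraries and the library labelled 11D EtOH 1 with the 10E IAA libraries in both plots.

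Over 9869 genes with an average log2 CPM of at least 3, the correlation of log2 levels was 0.982 between 10E EtOH 1 and 11D EtOH 1, 0.960 between 10E EtOH 2 and 11D EtOH 2, 0.944 between the EtOH libraries labelled 10E and 0.933 between those labelled 11D. The library labelled 11D EtOH 1 correlated at 0.906 and 0.915 with the 10E IAA libraries and at 0.921 and 0.924 with the 11D IAA libraries. These are correlations across genes, given as a description. For the 100 genes that differed most between the IAA libraries of the lines, levels were compared with both IAA means. Nearer to 11D IAA were 51 in 10E EtOH 1, 95 in 10E EtOH 2, 56 in 11D EtOH 1 and 92 in 11D EtOH 2. The EtOH 1 libraries were thus split about evenly there, unlike for Meg3. Whether the labels of 2 libraries were exchanged was not tested, and no library was moved to another group. Results are given from all 8 libraries as labelled, and the difference between the lines also from 2 reduced fits for the genes and lists described most fully. The first reduced fit leaves out the libraries labelled 10E EtOH 2 and 11D EtOH 1, and the second 10E EtOH 1 and 11D EtOH 2. Both were chosen after seeing the data and leave 1 EtOH library in each line, assumed to vary like the other groups.

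More genes passed the test in 10E than in 11D, and no gene passed the test of the difference between them. In 10E, 2846 genes changed between EtOH and IAA (edgeR's quasi-likelihood test, Benjamini-Hochberg adjusted p under 0.05), 1416 higher and 1430 lower with IAA, which is 17.2% of the genes tested. In 11D, 438 genes changed, 271 higher and 167 lower, or 2.65%. The line-by-treatment difference had 0 calls (0% of genes tested), with 2345 genes (14.2%) at an unadjusted p under 0.05, 1152 of them positive (6.97%), and a smallest adjusted p of 0.162. DESeq2 called 136 differences, 1.05% of the 12994 genes to which it gave an adjusted p, 103 of them positive (0.793%), and edgeR without the filter on low counts called 421.

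The counts moved widely with single libraries left out. Without the library labelled 10E EtOH 2 the 10E count was 904, without 10E IAA 1 it was 1120, without 10E IAA 2 it was 456, and without 11D IAA 1 or 11D IAA 2 it was 1850 or 1781. It was 2431 without 10E EtOH 1, 3658 without 11D EtOH 1 and 3744 without 11D EtOH 2. The 11D count was 676 without 10E EtOH 2, 239 without 10E IAA 1, 285 without 10E IAA 2, 48 without 11D IAA 1 and 59 without 11D IAA 2. It was 638 without 10E EtOH 1, 586 without 11D EtOH 1 and 384 without 11D EtOH 2. All groups share an estimate of the spread, which also changes when a library is left out. A lower count thus does not show that the calls rested on that library. The difference had 31 calls without 10E EtOH 1, 19 without 11D EtOH 1, 7 without 11D EtOH 2 and 0 without each of the others. Without 10E EtOH 2 and 11D EtOH 1 together it had 35 calls, and without 10E EtOH 1 and 11D EtOH 2 it had 1368.

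The changes that passed in both lines pointed the same way. Of the 287 genes called in both, 287 had the same direction and 0 the opposite; they made up 10.1% of the 10E calls and 65.5% of the 11D calls. The sign in the other line matched for 86.6% of the 10E calls and 94.3% of the 11D calls, beside 65.7% of all genes tested. The genes called higher in 10E had a median change of 1.26 on the log2 scale in 10E and 0.59 in 11D, and those called lower had medians of -1.35 and -0.43. Those called higher in 11D had medians of 1.88 in 10E and 1.94 in 11D, and those called lower had -0.90 and -1.47. A gene called in a line had to be extreme there, so its median in that line is a description of the call.

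Among the shared changes, genes were named by the largest mean change among those whose difference had an unadjusted p over 0.05 with all 8 libraries. That does not show equal changes: in the first reduced fit the difference was 1.44 for Slc16a3 (edgeR unadjusted p = 0.0146) and 2.44 for F630040K05Rik (unadjusted p = 0.00078), and with all 8 libraries it was -1.36 ± 0.64 for Gulo (unadjusted p = 0.0565). Slc16a3, a lactate exporter, stood at 53.9 and 112 CPM in 10E EtOH, 14.3 and 9.47 in 10E IAA, 36.7 and 79.4 in 11D EtOH and 4.23 and 8.46 in 11D IAA. It fell by 2.82 ± 0.51 (SE, log2) in 10E and fell by 3.20 ± 0.52 in 11D, and within each line the groups did not overlap. Gulo, which encodes the last enzyme of vitamin C synthesis, fell by 3.42 ± 0.48 in 10E and by 2.07 ± 0.42 in 11D, and Creg2, a secreted glycoprotein, by 3.56 ± 0.51 and 2.23 ± 0.43. The predicted genes Gm15850 and F630040K05Rik also fell in both.

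The 5 that rose most in both lines were almost silent with EtOH, and their fold changes depend on the fit's prior count, so levels are given. Rai2 was at 0 to 0.046 CPM in the 4 EtOH libraries, 6.25 and 4.87 in 10E IAA and 1.71 and 0.89 in 11D IAA. Arpp21, which encodes a cyclic AMP-regulated phosphoprotein, was at 0.046 to 0.17 CPM with EtOH, 5.08 and 5.13 in 10E IAA and 4.13 and 2.11 in 11D IAA. Slc34a2, a sodium-dependent phosphate transporter, S100a3 and the predicted gene Gm47760 had the same form. Hs3st4, a heparan sulfate sulfotransferase chosen after its values were seen, stood at 1.51 to 3.76 CPM with EtOH, 80.1 and 71.2 in 10E IAA and 25.1 and 17.4 in 11D IAA. It rose in both lines but falls outside the rule above. Its difference was 2.20 ± 0.52 (edgeR unadjusted p = 0.0013, adjusted p = 0.248), and 1.33 and 3.14 in the reduced fits.

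**Figure D2:**
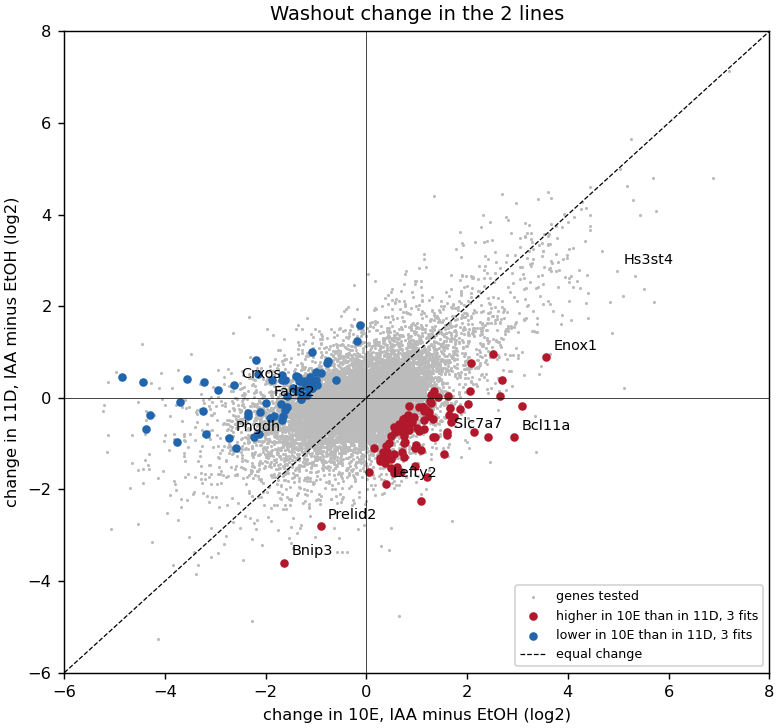
Change with IAA in 11D against that in 10E (log2), for genes with an average log2 CPM of at least 0; grey points are all such genes, red and blue those with a positive or negative line-by-treatment difference at an unadjusted p under 0.01 in all 3 fits, and the dashed line is an equal change. The coloured genes lie on both sides of the dashed line, most with changes of opposite sign in the 2 lines.

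To find differences that do not rest on the EtOH libraries in question, genes were taken that had the same sign and an unadjusted edgeR p under 0.01 with all 8 libraries and in both reduced fits. This rule was set after the values were seen, so what follows on these genes is a description. It kept 156 genes (0.944% of those tested), 93 with a larger change in 10E (0.563%) and 63 with a smaller one (0.381%), and DESeq2 called 101 of them. In edgeR with all 8 libraries none had an adjusted p of the difference below 0.162. In 81 the fitted change was positive in 10E and negative in 11D, in 40 the reverse, in 10 positive in both and in 25 negative in both. The 93 had median changes of 0.91 in 10E and -0.68 in 11D, and 49 were called higher in 10E and 17 lower in 11D. The 63 had medians of -1.62 and 0.21, and 58 were called lower in 10E and 2 higher in 11D. Over all genes tested, 8.57% were called higher and 8.66% lower in 10E, and 1.64% higher and 1.01% lower in 11D. The set was chosen by the 10E change minus the 11D change, so an excess of such calls and of opposite signs follows from the choice.

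Slc7a7, the light chain of a cationic amino acid transporter, had the smallest p of the difference. It stood at 39.2 and 34.1 CPM in 10E EtOH, 107 and 116 in 10E IAA, 36.5 and 47.3 in 11D EtOH and 21.3 and 26.4 in 11D IAA. The 4 EtOH libraries lay close together, the 10E IAA libraries above them and the 11D IAA libraries below. The difference was 2.42 ± 0.33 (SE, log2; edgeR unadjusted p = 9.82e-06, adjusted p = 0.162), and 2.48 and 2.32 in the reduced fits.

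Further genes of the set are described by what their products do, and were picked after their values were seen. Sox5, a SoxD factor, stood at 2.94 and 4.30 CPM in 10E EtOH, 14.6 and 24.1 in 10E IAA, 4.80 and 10.9 in 11D EtOH and 3.82 and 4.90 in 11D IAA, a difference of 3.27 ± 0.61, and 4.05 and 2.33 in the reduced fits. Bcl11a, a zinc-finger repressor, stood at 5.47 and 9.61 CPM in 10E IAA and 0.67 to 1.64 CPM in the other 6 libraries, a difference of 3.78 ± 0.75, and 3.47 and 4.11 in the reduced fits. Zfp608 was at 10.7 and 9.74 CPM in 10E IAA and 1.14 to 3.32 CPM elsewhere. In these 3 genes the 10E IAA libraries stood above all others.

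Efna5, an ephrin ligand, rose by 2.70 ± 0.33 in 10E, from 5.49 and 4.90 to 27.3 and 39.7 CPM, and its change in 11D was 0.39 ± 0.31. Robo1, a receptor for Slit guidance cues, stood at 77.9 and 137 CPM in 10E IAA and 54.0 and 34.2 in 11D IAA, with 72.5 to 126 CPM in the EtOH libraries. Ror1, a Wnt co-receptor, fell in 11D from 4.20 and 3.51 to 0.70 and 0.89 CPM. Lefty2, a secreted antagonist of Nodal, stood at 11.8 and 19.2 CPM in 10E EtOH, 22.6 and 18.2 in 10E IAA, 11.7 and 20.4 in 11D EtOH and 5.23 and 3.45 in 11D IAA. It fell by 1.88 ± 0.37 in 11D, and the difference was 2.27 ± 0.51, and 2.99 and 1.505 in the reduced fits. In its neighbour Lefty1 the EtOH libraries split by number, at 2.32, 17.5, 1.55 and 17.5 CPM in 10E EtOH 1, 10E EtOH 2, 11D EtOH 1 and 11D EtOH 2. Lefty1 stood at 3.91 and 5.26 CPM in 10E IAA and 1.21 and 2.00 in 11D IAA. Unlike for Meg3, the 11D IAA libraries were thus not near the EtOH libraries numbered 2.

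Enox1, Lrmda, Aff3, Jazf1, Slc9a7, Runx1t1, Adam23 and Ext1 were also higher in 10E IAA than in 11D IAA. Enox1 stood at 267 and 422 CPM in 10E IAA and 60.0 and 67.1 in 11D IAA, but its EtOH libraries ranged from 14.3 to 46.0 CPM, and its difference of 2.69 was 1.49 and 4.13 in the reduced fits. Ext1, a polymerase of heparan sulfate chains, stood at 314 and 477 CPM in 10E IAA and 185 and 152 in 11D IAA and rose by 1.24 ± 0.27 in 10E, and its 11D change was -0.39 ± 0.27.

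On the other side of the comparison, several metabolic genes had the more negative change in 10E. Phgdh, the first enzyme of serine synthesis, stood at 121 and 160 CPM in 10E EtOH, 26.8 and 15.9 in 10E IAA, 101 and 114 in 11D EtOH and 52.3 and 64.4 in 11D IAA. The 4 EtOH libraries were highest, the 11D IAA libraries next and the 10E IAA libraries lowest, and the difference was -1.85 ± 0.39, and -1.57 and -2.13 in the reduced fits. Slc6a9, a glycine transporter, fell by 2.59 ± 0.27 in 10E and fell by 1.10 ± 0.25 in 11D. Fads2 and Fads1, neighbouring fatty acid desaturases on chromosome 19, fell by 1.99 ± 0.25 and 1.58 ± 0.25 in 10E, and their 11D changes were -0.11 ± 0.23 and -0.19 ± 0.24.

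Among regulators, Srf, the serum response factor, and Akt1, a kinase of growth factor signalling, fell by 1.00 ± 0.26 and 1.16 ± 0.22 in 10E, with 11D changes of 0.57 ± 0.25 and 0.21 ± 0.22. Their EtOH levels also differed by line label. Srf stood at 24.8 and 35.0 CPM in 10E EtOH and 20.3 and 21.6 in 11D EtOH. With IAA it was at 17.2 and 12.9 CPM in 10E and 28.2 and 33.9 in 11D. Akt1 stood at 26.4 and 30.2 CPM in 10E EtOH and 18.6 and 18.8 in 11D EtOH. With IAA it was at 12.5 and 12.9 CPM in 10E and 21.5 and 21.6 in 11D. Crxos, a homeobox gene, stood at 10.4 and 9.47 CPM in 10E IAA and 50.3 and 62.0 in 11D IAA, with EtOH libraries from 29.6 to 93.3 CPM. Zfp319 and Cmtr2, a cap methyltransferase gene, lie on chromosome 8, which itself differed between the libraries. Pxt1, Vstm2l, Zfp764, Gpr157, Themis2, Cdc42ep1 and Ccdc107 were at most 13.5 CPM in any library. Bc1 and Rpl39l have near-identical copies elsewhere, so their counts are uncertain.

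**Figure D3:**
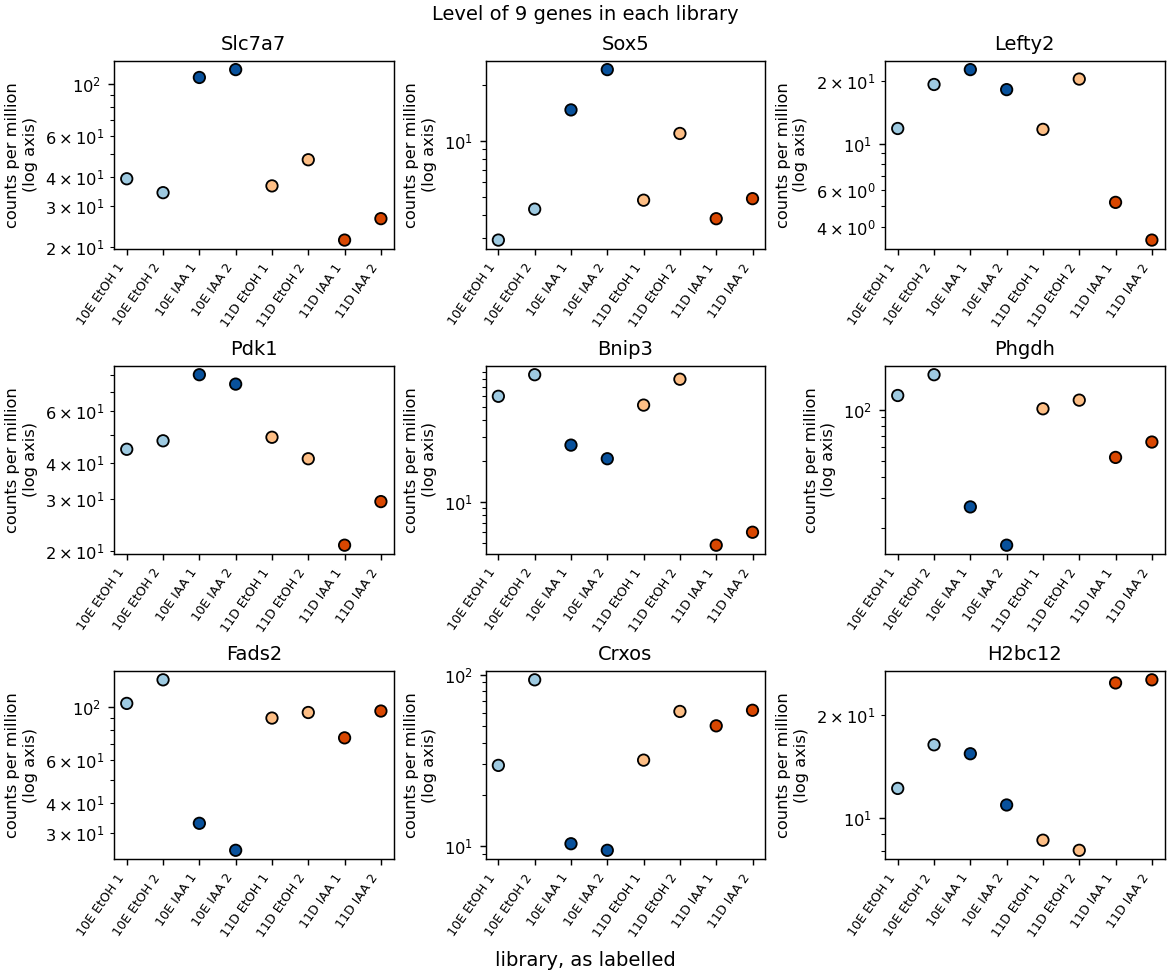
Level in CPM (log axis) of 9 genes in each of the 8 libraries, coloured as in the plot of Meg3 by library. For Slc7a7, Pdk1, Bnip3, Phgdh and Fads2 the EtOH libraries of both lines lie close together and the IAA libraries differ by line.

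Genes of hypoxia and glycolysis fell for the most part where they were called. Of 24 tested, 1 rose and 11 fell in 10E, where 8.57% and 8.66% of all genes did so, and 0 rose and 2 fell in 11D, beside 1.64% and 1.01%. Their median change was -0.80 in 10E and -0.64 in 11D, beside -0.08 and -0.03 over all genes. The median difference was 0.06 with all 8 libraries and turned to -0.23 in the first reduced fit. Bnip3, a mitophagy receptor, stood at 59.7 and 85.9 CPM in 10E EtOH, 26.2 and 20.8 in 10E IAA, 51.4 and 79.6 in 11D EtOH and 4.83 and 6.01 in 11D IAA. It fell by 1.64 ± 0.29 in 10E and fell by 3.60 ± 0.32 in 11D, a difference of 1.96 ± 0.41, and 2.51 and 1.37 in the reduced fits. Pdk1, a kinase that inhibits pyruvate dehydrogenase, rose by 0.74 ± 0.23 in 10E, and its 11D change was -0.84 ± 0.23. Vegfa, an angiogenic growth factor, went the other way, falling by 1.73 in 10E, with an 11D change of -0.69.

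The integrated stress response list, which holds ATF4 and the amino acid genes it activates, fell for 13 of 23 genes tested in 10E, where 8.66% of all genes fell, and for 1 in 11D, where 1.01% did. None of the 23 rose in either line, and the medians were -1.15 and -0.38. The median difference was -0.83 with all 8 libraries, -0.44 without 10E EtOH 2 and 11D EtOH 1 and -1.03 without 10E EtOH 1 and 11D EtOH 2, beside -0.08 over all genes in each. In the difference 6 members (Trib3, Chac1, Psat1, Phgdh, Vldlr and Gdf15) had an unadjusted p under 0.05, all negative, where 7.22% of genes did so. All 6 differences were smaller in the first reduced fit than with all 8 libraries. In the reduced fits the difference was -0.52 and -1.24 for Trib3, -1.11 and -2.61 for Chac1 and -0.63 and -1.03 for Psat1. It was -1.57 and -2.13 for Phgdh, -0.81 and -1.87 for Vldlr and -0.91 and -3.51 for Gdf15, which lies on chromosome 8. Chac1, which degrades glutathione, stood at 20.3 and 41.9 CPM in 10E EtOH, 2.54 and 1.97 in 10E IAA, 18.8 and 25.9 in 11D EtOH and 3.92 and 8.35 in 11D IAA, and fell in both lines. Of 23 sterol and lipid synthesis genes, 9 fell and 1 rose in 10E, beside the same 8.66% and 8.57% of all genes. The median difference of this list was -0.23, and -0.54 and -0.09 in the reduced fits. In 11D 1 fell, Dhcr7, the last enzyme of cholesterol synthesis, which fell by 1.94 in 10E and 1.28 in 11D.

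Replication-dependent histone genes rose in 11D for 15 of 52 tested, where 1.64% of all genes rose, and 0 fell. In 10E 0 rose and 3 fell, beside 8.57% and 8.66% of all genes. The list had median changes of -0.20 and 1.07. In the difference 30 had an unadjusted p under 0.05, all negative, where 7.22% of all genes did. The median difference was -1.25, and -0.69 and -1.68 in the reduced fits. H2bc12 stood at 12.2 and 16.4 CPM in 10E EtOH, 15.4 and 10.9 in 10E IAA, 8.62 and 8.05 in 11D EtOH and 24.9 and 25.4 in 11D IAA. Its 11D IAA libraries stood above the other 6, and it rose by 1.59 in 11D, as did H4f16, by 1.71. Histone genes are near-identical copies, so single genes are uncertain.

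Cytosolic ribosomal protein genes fell in 10E, 49 of 74 beside 8.66% of all genes, and 0 fell in 11D, beside 1.01%. Their median changes were -0.92 and -0.30, and the median difference was -0.61, -0.92 and -0.38 in the 3 fits. Mitochondrially encoded genes had medians of -0.79 in 10E, where 3 of 9 fell, and 0.21 in 11D, where 0 of 9 passed; the median difference was -1.18, and -0.44 and -1.50 in the reduced fits. mt-Nd1 and mt-Nd2, subunits of respiratory complex I, fell in 10E by 1.11 ± 0.30 and 1.38 ± 0.25. The share of all counts on the mitochondrial genome was 0.110% and 0.140% in 10E IAA 1 and 2, and 0.243% to 0.358% in the other 6 libraries. All counts here include the 6 loci over 1% of counts. These took 39.6% and 40.7% in 10E IAA 1 and 2, 29.9% and 40.5% in 11D IAA 1 and 2 and 7.12% to 11.4% with EtOH. Of the immediate early and AP-1 genes, 2 of 19 rose and 5 fell in 10E, and 1 rose and 1 fell in 11D, while 8.57% of all genes rose and 8.66% fell in 10E, and 1.64% rose and 1.01% fell in 11D. Ier2, on chromosome 8, was among those that fell in 10E, by 1.77.

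Genes marking a two-cell-embryo-like state rose in 10E for 10 of 12 tested and in 11D for 3, beside 8.57% and 1.64% of all genes. Their median changes were 2.90 and 2.09, and the median difference was 0.83, and 0.64 and 0.82 in the reduced fits. The difference had an unadjusted edgeR p under 0.05 for 1 of the 12, Usp17le, where it was positive, beside 6.97% of all genes. This count is near that share. The Usp17le difference was 1.68 ± 0.72 with all 8 libraries, and 1.26 and 2.02 in the reduced fits. Usp17le, a deubiquitinase gene of a repeated cluster, stood at 0.31 and 0.18 CPM in 10E EtOH, 16.6 and 9.87 in 10E IAA, 0.33 and 0.33 in 11D EtOH and 5.63 and 5.79 in 11D IAA. Both Usp17l and Zscan4 genes are near-identical copies, and Zscan4c, at 7.22 and 1.18 CPM in 10E IAA, was called in 10E and not in 11D, with the difference at 0.43 ± 1.16. These are bulk libraries, in which more cells of a state and more RNA per cell cannot be told apart. The lists that follow also stand beside 8.57% of all genes rising and 8.66% falling in 10E, and 1.64% rising in 11D. Wnt pathway genes rose in 10E for 7 of 21 and in 11D for 2, among them Dkk1, a Wnt antagonist, in both lines. Elongation factors and CHD remodellers rose in 10E for 7 of 22 and in 11D for 1, Ctr9 of the PAF complex, which rose by 1.75 and 1.34. Chd4, a remodeller of the NuRD complex, and Aff4, a scaffold of the super elongation complex, rose in 10E by 1.42 and 0.93. Their 11D changes were 0.84 ± 0.23 and -0.24 ± 0.24, neither passing the test, and their differences 0.58 ± 0.33 and 1.16 ± 0.34. Among p53 targets 7 of 24 rose and 3 fell in 10E and 5 rose in 11D, with Perp and Plk2 rising in both. In the reduced fits the median difference ran from -0.28 to 0.52 for the Wnt list, 0.22 to 0.48 for the elongation list and -0.47 to 0.12 for the p53 list.

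Among pluripotency genes, 0 of 5 core factors tested passed in either line, and of 28 naive pluripotency genes 2 rose and 3 fell in 10E and 0 passed in 11D. These counts are near the shares over all genes, 17.2% in 10E and 2.65% in 11D. Klf2, on chromosome 8, fell by 1.43 in 10E. The changes of Pou5f1 were -0.12 ± 0.24 in 10E and -0.17 ± 0.24 in 11D, those of Nanog -0.29 ± 0.22 and -0.55 ± 0.22, of Klf4 0.00 ± 0.26 and -0.04 ± 0.26, of Esrrb -0.35 ± 0.35 and -0.17 ± 0.35, and of Zfp42 -0.23 ± 0.22 and 0.03 ± 0.22. The median difference of the naive list changed sign with the EtOH libraries used, from -0.32 without 10E EtOH 2 and 11D EtOH 1 to 0.84 without 10E EtOH 1 and 11D EtOH 2. Marker genes of the fibroblast and mesenchyme list summed to 530 to 659 CPM with EtOH, 1090 and 1096 in 10E IAA and 767 and 617 in 11D IAA, of which Fn1, fibronectin, made most, with 944 and 915 CPM in 10E IAA. The part of such cells in the results was not tested.

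Of the 2 FACT genes, Supt16 rose in 10E. It stood at 56.9 and 76.5 CPM in 10E EtOH, 116 and 131 in 10E IAA, 85.7 and 89.8 in 11D EtOH and 109 and 91.6 in 11D IAA. The 10E change was 0.89 ± 0.23, the 11D change was 0.19 ± 0.23, and the difference was 0.70 ± 0.32 (edgeR unadjusted p = 0.0498, adjusted p = 0.352). In the reduced fits it was 0.96 (unadjusted p = 0.0136) and 0.47 (unadjusted p = 0.176). Ssrp1 changed by 0.13 ± 0.22 in 10E and 0.26 ± 0.22 in 11D, neither passing the test.

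**Figure D4:**
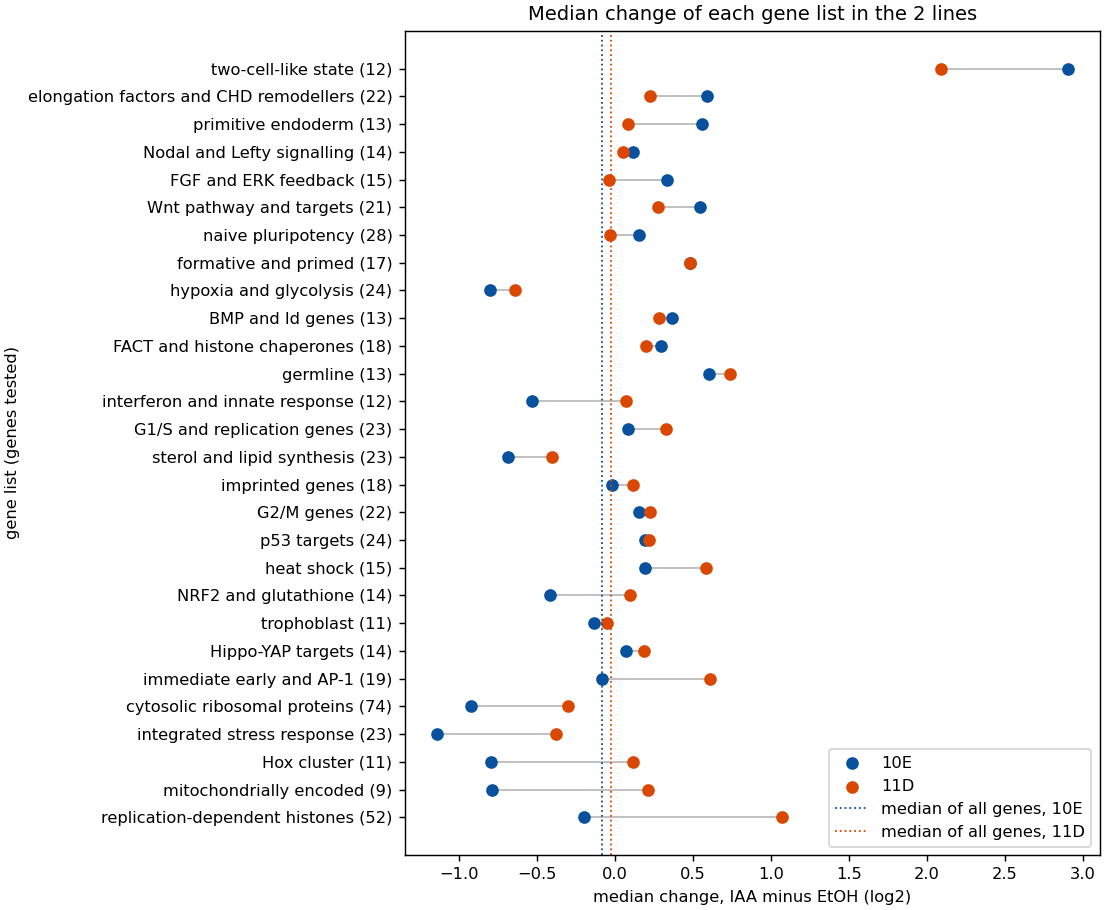
Median change with IAA (log2) of each gene list with at least 9 genes tested, 10E in blue and 11D in orange, with the median over all genes dotted and the number of genes tested in brackets. The 2 lines lie farthest apart for the replication-dependent histones (-0.20 in 10E, 1.07 in 11D), and the two-cell-like list is highest in both.

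The changes varied with gene length, upwards throughout in 10E and downwards in 11D only above 100 kb. In 10E the median change rose from -0.65 for 1409 genes spanning under 3 kb to 0.54 for 538 genes over 300 kb. In 11D it was 0.02 for the shortest genes and stayed between -0.02 and 0.02 up to 100 kb. It was -0.23 for genes of 100 to 300 kb and -0.27 for the longest. The median difference rose from -0.64 to 0.82. The ends were -0.56 and 1.03 without 10E EtOH 2 and 11D EtOH 1, and -0.75 and 0.53 without 10E EtOH 1 and 11D EtOH 2. Of the 156 genes above, the 93 positive ones had a median span of 181 kb and the 63 negative ones of 8.94 kb, beside 23.0 kb over all genes tested.

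The libraries of a group were unequal in this trend. For genes over 300 kb the median deviation from each gene's mean was 0.17 in 10E IAA 1 and 0.52 in 10E IAA 2, and -0.04 in 11D IAA 1 and -0.32 in 11D IAA 2. It was -0.23 and -0.26 in 10E EtOH 1 and 2, and -0.15 and 0.25 in 11D EtOH 1 and 2. Libraries labelled alike thus also differed, the 11D EtOH pair most. The histone and ribosomal protein genes are short, with median spans of 0.54 and 3.27 kb, and the part of length in their difference was not tested.

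**Figure D5:**
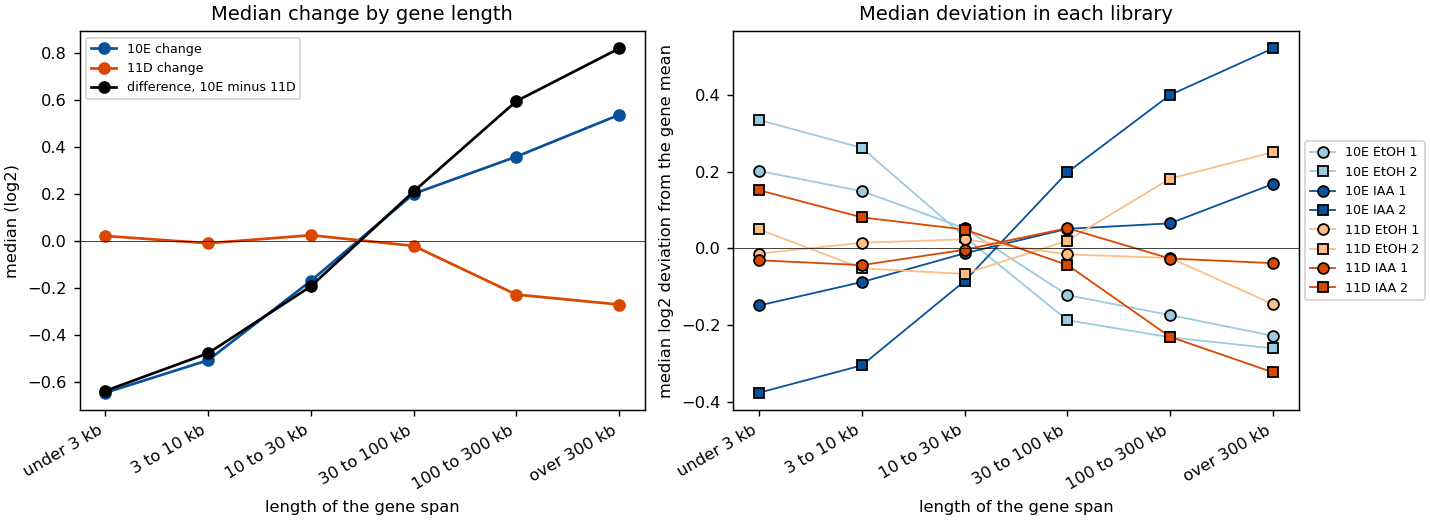
Left, median log2 change with IAA by length of the gene span, for 10E, 11D and the difference; right, median deviation of each library from the gene means (circles for libraries numbered 1, squares for 2; colours as in the plot of Meg3 by library). The difference rises from -0.64 to 0.82, and 10E IAA 2 shows the steepest rise among the libraries.

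Chromosome 8 stood apart from the others in the difference. Its 867 genes had a median difference of -0.68, where the medians of the other 19 chromosomes with at least 100 genes tested ran from -0.20 to 0.25. On chromosome 8, 25.6% of genes had a negative difference at an unadjusted p under 0.05, beside 3.68% to 9.12% on the others. The median was -0.21 without 10E EtOH 2 and 11D EtOH 1 and -1.09 without 10E EtOH 1 and 11D EtOH 2. With chromosome 8 genes left out of the test, the difference again had 0 calls, with 2145 genes at an unadjusted p under 0.05.

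The changes were next set beside the authors' deposited table for 12 h, whose direction of comparison is not stated in the sources used here, so its genes are called positive or negative as signed. Over 1188 genes with a positive value and an adjusted p under 0.05 in the authors' deposited table, the median washout change was 0.40 in 10E and 0.44 in 11D. Over 1887 negative ones it was -0.06 in 10E and -0.30 in 11D, beside -0.03 and -0.02 over all 13526 genes of that table. The SD over the 4 pairings of an IAA with an EtOH library was 0.15 and 0.13 for the positive genes and 0.17 and 0.07 for the negative ones. The pairings reuse the same libraries and are not independent, so this SD is a description. Whether the lines differed over these genes was not tested. For the negative genes 20.3% had a positive change in 11D and 45.9% in 10E, beside 48.0% and 48.3% over all genes of the table. Calls among the positive genes were 244 higher and 26 lower in 10E, and 84 higher and 0 lower in 11D. Among the negative genes they were 47 higher and 202 lower in 10E, and 0 higher and 54 lower in 11D. The called share was thus 22.7% in 10E and 7.07% in 11D for the positive genes and 13.2% and 2.86% for the negative ones, beside 17.6% and 2.62% over all genes of the table. The 10E median over the negative genes turned positive, to 0.043, without 10E EtOH 1 and to 0.027 without 10E IAA 1. Across the 10434 genes whose mean in the authors' deposited table reached 100 counts, its log2 values correlated with the 10E change at 0.15 and with the 11D change at 0.42, as a description.

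Promoters of the genes in the 156-gene set are shown for 3 whose levels differed by line with close EtOH libraries. Sequences are from RefSeq (GRCm38.p6), 250 bases up to the first base before the annotated start, of which a gene may have several, 5′ to 3′ on the gene's strand. Capitals mark the motifs searched on both strands: TGACGT (the core of the cyclic AMP response element, to which ATF factors bind), TGACTCA (AP-1), CACGTG (E-box), TATAAA and CCAAT.
Slc7a7: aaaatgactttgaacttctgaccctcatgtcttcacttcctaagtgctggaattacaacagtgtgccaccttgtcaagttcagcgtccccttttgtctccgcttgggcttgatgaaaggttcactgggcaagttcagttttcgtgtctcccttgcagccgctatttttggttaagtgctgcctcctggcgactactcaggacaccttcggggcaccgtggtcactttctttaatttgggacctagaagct
Bnip3: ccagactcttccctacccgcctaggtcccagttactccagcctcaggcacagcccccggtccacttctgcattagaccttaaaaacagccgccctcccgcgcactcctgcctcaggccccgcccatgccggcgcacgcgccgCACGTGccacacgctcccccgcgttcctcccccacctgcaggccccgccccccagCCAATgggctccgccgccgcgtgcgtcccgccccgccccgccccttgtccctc
Phgdh: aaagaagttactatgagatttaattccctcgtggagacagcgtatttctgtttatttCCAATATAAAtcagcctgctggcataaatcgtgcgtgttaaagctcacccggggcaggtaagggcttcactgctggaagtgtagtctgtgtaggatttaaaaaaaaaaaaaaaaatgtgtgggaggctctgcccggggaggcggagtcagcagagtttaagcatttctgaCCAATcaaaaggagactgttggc

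These windows are chr14:54417945-54418194, chr7:138909507-138909756 and chr3:98339970-98340219, all on the minus strand. Bnip3 holds an E-box and a CCAAT match, Phgdh 2 CCAAT matches and 1 TATAAA match, which overlaps the first of them, and Slc7a7 none of the 5. A promoter was matched for 11888 of 16517 genes tested, 75 of the 93 and 47 of the 63. The E-box was in 6.67% of the 75, 12.8% of the 47 and 8.24% of all, CCAAT in 24.0%, 36.2% and 36.5%, TATAAA in 9.33%, 14.9% and 6.52%, TGACGT in 2.67%, 4.26% and 9.60%, and TGACTCA in 2.67%, 6.38% and 3.03%. A match is a description of letters and not a site.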

How the data were processed

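TT-seq libraries of the washout arm were analysed from the authors' deposited counts, whole numbers of reads per gene. Per the file headers, featureCounts 2.0.1 counted read pairs with both ends mapped, on the reverse strand, over whole gene spans, so intronic reads count and reads shared by overlapping genes on a strand are lost. STAR, deepTools and mm10 are named per the submitters' processing notes, with no version. The deposited gene tables of the time course give a mean normalized signal, log2 fold changes and adjusted p-values made by the authors; how they were made is not given in the sources used here.

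Genes were tested with edgeR 4.0.16 (limma 3.58.1, R 4.3.3), TMM scaling and the quasi-likelihood test, 1 coefficient per line and treatment over all 8 libraries, Benjamini-Hochberg adjusted over 16517 genes. DESeq2 1.42.0, other scalings and filters, a replicate block and leaving out libraries were alternatives. The code was tested on simulated data. Total counts of 6547992 to 16554314 with 2 libraries per line and treatment set the precision. Lines come from the column headers, treatments from the labels. Members and gene lists were chosen with earlier results of these data known. Named genes were to be the 12 most positive and 12 most negative called differences, calls of opposite direction, the 5 largest shared rises and falls, and Supt16, Ssrp1, Pou5f1, Sox2, Nanog, Klf4, Esrrb and Zfp42; the first 2 groups held 0 genes. All other genes were chosen after their values were seen. The time-course libraries were not analysed here.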

Additional observations from a re-analysis of the deposited data

Results flagged for a closer look

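In groups of 4 libraries, a library was marked when its gap to the nearest other, as a share of the group's range, exceeded Dixon's 95% critical value, which chance gives in about 1 of 20 groups; 176 groups were tested and 10 were marked. Among the EtOH libraries, 10E EtOH 2 stood apart for Rai2 (0.046 CPM) and Usp17le (0.18 CPM), both near silent. The library labelled 11D EtOH 2 stood apart for Ssrp1 (32.1 CPM), Zfp608 (3.32 CPM), Lrmda (10.4 CPM) and Runx1t1 (22.7 CPM), the last 3 long genes of the 156-gene set, whose differences are positive with and without it. The library labelled 11D EtOH 1 stood apart for mt-Nd2 (423 CPM). Among the IAA libraries, 10E IAA 1 had the lowest total, 6547992 counts, and the highest Slc34a2 level (6.25 CPM), and 11D IAA 1 had the lowest share in the 6 loci that each took over 1% of the counts in some library, 29.9%.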

How the results depend on the processing

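The difference between the lines had 0 calls under RLE and upper-quartile scaling, without the 6 loci over 1% of counts, with at least 50 counts, with a 1.2-fold minimum and without chromosome 8. It had 2 calls with the replicate block (Slc7a7 and Sox5), 136 with DESeq2, 421 with no filter on low counts, all among the genes tested, 35 and 1368 in the reduced fits, 96 without both EtOH 1 libraries and 10 without both EtOH 2 libraries. Leaving out 1 library gave 0 to 31. The 10E count ran from 456 to 3744 with 1 library left out, and was 4427 without 10E EtOH 1 and 11D EtOH 2 and 4430 without both EtOH 1 libraries. The 11D count ran from 48 to 676 with 1 library left out; it was 706 with the replicate block, 904 with DESeq2, 1303 with no filter, 280 with the 1.2-fold minimum, 1360 and 914 in the reduced fits, and 1364 and 929 without both EtOH 1 or both EtOH 2 libraries. The cause was not tested. Only 2 numbers are shared, so the samples share only a number: deviations of same-numbered libraries correlated at 0.68 between the EtOH pairs and between -0.16 and 0.08 in the other 5 pairs of groups.

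Over the positive 12 h genes the 11D median ran from 0.38 to 0.59 with 1 library left out, and was 0.59 without 10E EtOH 1 and 11D EtOH 2 and 0.61 without both EtOH 2 libraries. Over the negative genes it ran from -0.34 to -0.23, with -0.23 without both EtOH 1 libraries, and the 10E median ran from -0.15 to 0.043, with 0.044 without 10E EtOH 1 and 11D EtOH 2 and 0.046 without both EtOH 1 libraries.

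Several differences turned sign. Without 10E EtOH 2 and 11D EtOH 1 they were -0.16 for Alk, -0.82 for Arpp21, -1.69 for Dkk1, -0.49 for Klf4, 1.75 for Meg3, 0.55 for Mirg, 0.0034 for Plagl1, 0.47 for Plk2, -0.32 for Pou5f1, 1.87 for Rian, -3.17 for S100a3 and -0.24 for Spry4. Without 10E EtOH 1 and 11D EtOH 2 they were 0.70 for Esrrb, -0.59 for F630040K05Rik, -1.95 for Lefty1, -1.55 for Perp, -0.36 for Rai2, -0.72 for Slc16a3 and 0.0043 for Ssrp1. Without both EtOH 1 libraries they were -0.99 for Dkk1, 2.38 for Gm47760, -0.016 for Klf4, -0.41 for Rai2 and -1.77 for S100a3, and without both EtOH 2 libraries 0.035 for Plk2 and -0.007 for Pou5f1. Upper-quartile scaling gave -0.027 for Klf4, -0.015 for Pou5f1 and -0.0073 for S100a3, the replicate block -0.27 and DESeq2 -0.013 for S100a3.

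With 1 library left out the difference ran from -3.58 to 3.90 for Gm15850, -0.28 to 1.00 for Slc16a3, -0.11 to 1.81 for F630040K05Rik, -0.48 to 2.07 for Rai2, -2.96 to 1.66 for Gm47760, -0.10 to 1.72 for Arpp21, -2.60 to 1.00 for S100a3, -0.29 to 0.051 for Ssrp1, -0.15 to 0.27 for Pou5f1, -0.27 to 0.29 for Klf4, -0.67 to 0.34 for Esrrb, -9.33 to 0.77 for Meg3, -10.5 to 0.90 for Rian, -1.16 to 3.55 for Lefty1, -1.36 to 1.30 for Zscan4c, -1.33 to 1.01 for Dkk1, -0.94 to 1.76 for Perp and -0.80 to 0.27 for Plk2. Of the other alternatives for single genes, 1279 kept their direction and missed the threshold and 160 kept it and passed.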
